A study of Mus musculus with 8 samples.

Results

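Chemokines are small secreted proteins that direct the movement of leukocytes, and of some stromal and endothelial cells, through G protein-coupled receptors on the responding cell. They are sorted by the spacing of their first cysteines into CC, CXC and CX3C ligands, and the receptors are named after the ligand class they bind. Atypical receptors (Ackr genes) bind chemokines without G protein signalling and remove or transport them. In adipose tissue, stromal and mesothelial cells are known sources of ligands such as Ccl2, which recruits monocytes, and most of the receptors are found on leukocytes.

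The genes described here are the protein-coding mouse genes whose symbols start with Ccl, Cxcl, Ccr, Cxcr or Ackr and a number, with Cx3cl1 and Cx3cr1 added. The rule found 65 gene entries among the 49671 gene rows of the count files, and 58 of them lie on chromosomes. A further 3 symbol matches, among them Cxcl11, are not annotated as protein coding and were left out. The other 7 are extra copies of Ccl19, Ccl21a, Ccl21b, Ccl21c and Ccl27 on unplaced scaffolds, and all 7 had 0 counts in every library. By role there were 30 CC ligand entries, 13 CXC or CX3C ligands, 18 receptors and 4 atypical receptors. After the filter on low counts 24 of the 65 remained among the 14887 genes tested, namely 10 CC ligands, 8 CXC or CX3C ligands, 4 receptors and 2 atypical receptors.

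Polyadenylated RNA was sequenced from mouse samples labelled adipocytes, with 4 libraries of the mutant BMPR2 DELX and 4 of the control, ROSA. The sources give no age, sex, agent, description of either allele, Cre line or promoter, and they do not say whether each library is 1 animal or a pool. Total counts per library ran from 28799445 to 43684785. At these depths 3 counts, the limit that a count of 0 allows, corresponded to 0.0670 to 0.0998 CPM (counts scaled to the size of the library, here corrected by trimmed mean of M values, TMM), and this limit covers counting error only.

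Bmpr2, the BMP receptor gene that gives the mutant its name, had 237, 208, 201 and 199 CPM in BMPR2 DELX, against 216, 207, 183 and 183 CPM in ROSA. The groups overlapped and the gene total did not pass the test (log2 fold change 0.10, edgeR quasi-likelihood test, adjusted p = 0.47), and a gene total does not show which exons were read. Of 14 adipocyte markers, 6 had at most 3 counts in every library, and Adipoq, the adiponectin gene, had at most 6 counts in any library. Another 6 markers of this list were expressed and tested, namely Lpl, Pparg, Pnpla2, Lipe, Fabp4 and Plin4. Lpl, the lipoprotein lipase gene, was higher at 210 ± 34.5 CPM in BMPR2 DELX, against 140 ± 17.7 CPM in ROSA (edgeR adjusted p = 0.024), and the other 5 did not pass. Log2 fold changes were positive for 3 of the 6 tested markers, with a median of 0.07. The 1 call stands beside 3.96% of all tested genes called higher. The 17 fibroblast and mesothelial markers summed to 18440 to 26372 CPM in BMPR2 DELX, against 19508 to 24392 CPM in ROSA. Of 16 tested, 1 was called higher (Col3a1) and 0 lower, beside 3.96% of all tested genes called higher and 5.15% called lower. Which cells made the chemokine RNA was not tested. Adipocytes is used here as the name the labels give the samples. A difference in a bulk sample cannot separate fewer cells of a type from less RNA per cell.

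The promoters of 3 CXC ligands of 1 chromosomal cluster, Cxcl1, Cxcl2 and Cxcl3, are shown because these neighbouring genes share a sequence element. They were chosen with their expression values known, so the element is no support for a difference in expression. The sequences are from RefSeq on GRCm38.p6, plus strand, and are printed 5′ to 3′ from 250 bases before the RefSeq start up to the first annotated exon base. The capitals mark a κB motif, the kind of element bound by NF-κB family factors, that matched on both strands with the matches overlapping by all but 1 base at each end. The regions are chr5:90890995-90891240 for Cxcl1, chr5:90903649-90903870 for Cxcl2 and chr5:90785851-90786100 for Cxcl3.
Cxcl1: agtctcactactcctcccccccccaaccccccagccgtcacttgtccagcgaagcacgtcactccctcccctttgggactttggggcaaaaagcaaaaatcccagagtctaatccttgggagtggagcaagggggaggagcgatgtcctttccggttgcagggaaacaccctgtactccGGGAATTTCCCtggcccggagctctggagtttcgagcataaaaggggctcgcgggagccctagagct
Cxcl2: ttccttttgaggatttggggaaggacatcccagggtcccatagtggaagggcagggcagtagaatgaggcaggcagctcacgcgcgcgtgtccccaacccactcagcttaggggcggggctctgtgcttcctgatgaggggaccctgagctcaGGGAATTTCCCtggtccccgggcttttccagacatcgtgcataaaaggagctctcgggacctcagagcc
Cxcl3: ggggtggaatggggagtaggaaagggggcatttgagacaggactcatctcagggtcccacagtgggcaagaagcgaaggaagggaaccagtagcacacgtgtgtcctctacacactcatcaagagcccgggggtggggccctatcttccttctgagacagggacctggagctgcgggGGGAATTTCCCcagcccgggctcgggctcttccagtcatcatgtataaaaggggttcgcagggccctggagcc
The plus-strand match began 71 bases before the RefSeq start in Cxcl1, 97 bases before it in Cxcl2 and 73 bases before it in Cxcl3. The same 11-base run was present in 12 of 32851 mouse promoters in the table (0.0365%), and these 3 were its only holders among the 51 promoters of 44 members.

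The κB motif was GGGRNNYYCC, where R is A or G, Y is C or T and N is any base. Searched on both strands over the 300-base windows, it occurred in 12 of the 51 member promoters (23.5%) and in 8.46% of all promoters. The holders were 5 of the 17 tested members with a promoter, namely Cxcl1, Cxcl3, Ccl9, Ccl27a and Ccr1. Their log2 fold changes were -0.91, -1.21, -0.04, -0.14 and -1.63, and none passed the test. They were not compared with the tested members lacking the motif, and 17 of all 24 tested members had negative log2 fold changes. The Ccl27a match lay 30 to 39 bases after the RefSeq start. An interferon regulatory factor motif (GAAANNGAA, both strands) occurred in 8 of the 51 member promoters (15.7%) and in 8.56% of all promoters. These matches are descriptions of the sequence, and nothing about factor binding was measured. No promoter was analysed here for Ccl2, Ccl7 or Cxcl5.

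Chemokine expression in these cells was concentrated in a few ligands. Over all ligand genes the summed level was 284, 219, 260 and 207 CPM in BMPR2 DELX, against 293, 390, 267 and 292 CPM in ROSA. Ccl2 and Ccl7 together made up 45.8% to 57.4% of this sum in BMPR2 DELX and 55.6% to 63.0% in ROSA, so that the ranges overlapped between 55.6% and 57.4%. With Cxcl12 and Cxcl14 added, the 4 genes accounted for 83.9% to 85.2% in BMPR2 DELX and 83.0% to 87.2% in ROSA.

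Levels between genes were compared per kilobase of exon (RPKM computed from the scaled counts). Ccl7 averaged 74.3 ± 4.70 RPKM in BMPR2 DELX and 97.9 ± 14.9 RPKM in ROSA, and Ccl2 averaged 56.2 ± 10.9 RPKM in BMPR2 DELX and 96.5 ± 25.8 RPKM in ROSA (SD, n = 4 each). In ROSA the levels of Ccl2 and Ccl7 did not differ beyond their spread. Cxcl14 followed with 27.9 ± 14.1 RPKM in BMPR2 DELX and 19.9 ± 4.79 RPKM in ROSA, then the atypical receptor Ackr3 with 8.13 ± 1.89 RPKM in BMPR2 DELX and 7.64 ± 1.17 RPKM in ROSA. Every other tested member averaged at most 5.02 RPKM, the level of Cxcl12 in ROSA, in either group.

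**Figure D1:**
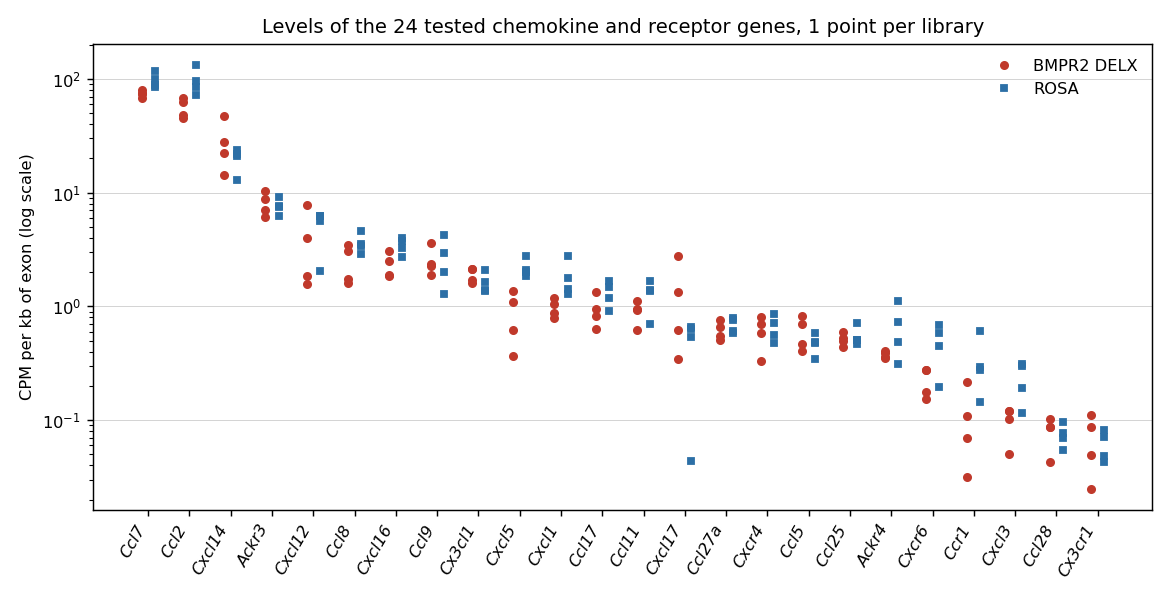
Levels of the 24 tested members as scaled CPM per kilobase of exon, on a log axis, with 1 point per library (BMPR2 DELX left, ROSA right within each gene). Genes run from the highest mean level on the left to the lowest on the right, with Ccl7, Ccl2 and Cxcl14 above all others.

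Of the 24 tested members, 3 were lower in BMPR2 DELX at an adjusted p below 0.05 and 0 were higher. The 3 were the CC ligands Ccl2 and Ccl7 and the CXC ligand Cxcl5, which is 12.5% of the tested members, beside 5.15% of all tested genes called lower, 3.96% called higher and 9.1% called in either direction. At an unadjusted p below 0.05, 9 members were lower (37.5%, beside 13.4% of all genes) and 0 were higher (beside 12.9%). The 9 were Ccl2, Ccl7, Cxcl5, Cxcl1, Cxcl3, Cxcl16, Ackr4, Cxcr6 and Ccr1. DESeq2 called 5 members lower and 0 higher, with 1228 of all 14887 genes lower and 1070 higher. Limma voom called 3 members lower and 0 higher, with 764 of all genes lower and 594 higher. Log2 fold changes were negative for 17 of the 24 members and for 49.3% of all tested genes. The median of the members was -0.41 against 0.0045 over all tested genes. Over the alternative fits given below the member median ran from -0.44 to -0.12, the latter without BMPR2 DELX 4. It was -0.21 with ROSA 1 and ROSA 2 set aside, and -0.26 over 48 members without the count filter. Ccr1 passed that filter through ROSA, where it was higher, which adds to the negative side and to the 9 members at an unadjusted p below 0.05. The BMPR2 DELX and ROSA libraries did not overlap for 4 members, Ccl2, Ccl7, Cxcl5 and Cxcl1, all lower (16.7%, beside 9.65% of all genes), and for 0 members in the higher direction (beside 8.32%).

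**Figure D2:**
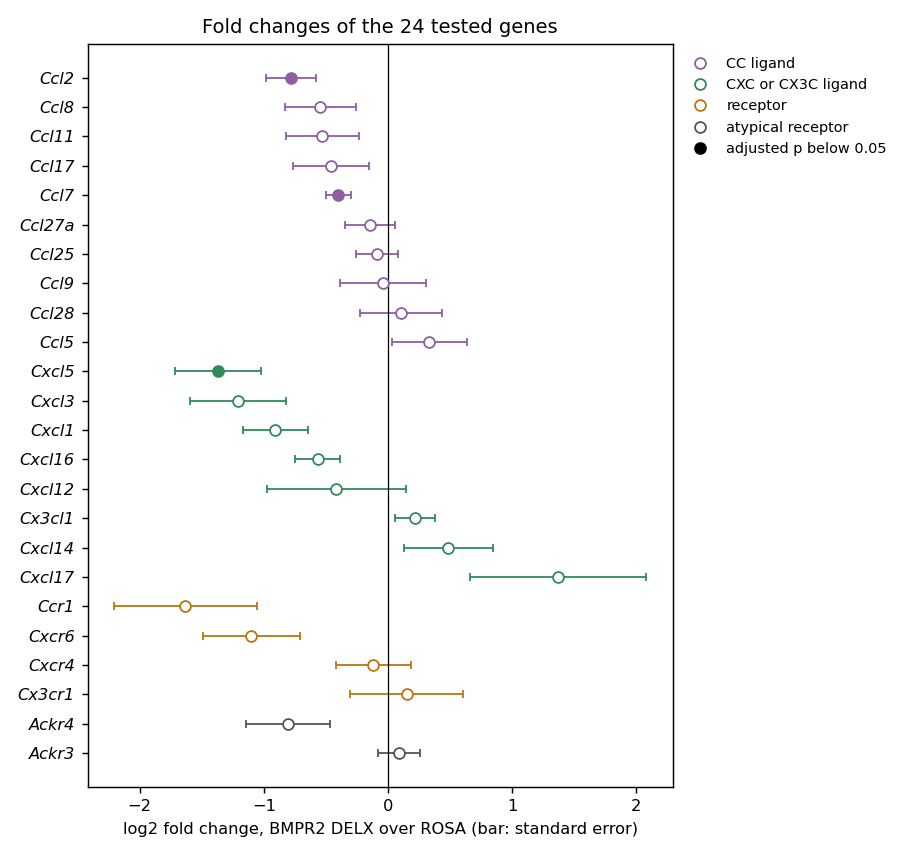
Log2 fold change of BMPR2 DELX over ROSA with its standard error for the 24 tested members, grouped by role. The filled points are Ccl2, Ccl7 and Cxcl5, at -0.78, -0.40 and -1.37, and all other points are open because their adjusted p was 0.05 or above.

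Ccl2 and Ccl7, neighbouring genes on chromosome 11, were the CC ligands lower in BMPR2 DELX. Ccl2, the monocyte attractant that signals through Ccr2, had 77.4, 71.4, 55.4 and 51.6 CPM in BMPR2 DELX, against 109.7, 150.6, 96.2 and 82.7 CPM in ROSA. Every BMPR2 DELX library was below every ROSA library, and ROSA 2 was the highest. The log2 fold change was -0.78 ± 0.20 (SE), 1.72-fold lower, with adjusted p = 0.045 in the edgeR test. Ccl7, a relative that binds Ccr2 along with other CC receptors, had 60.8, 54.5, 63.5 and 59.2 CPM in BMPR2 DELX, against 68.7, 94.9, 70.4 and 79.8 CPM in ROSA. The BMPR2 DELX libraries were close together and all below the ROSA libraries, with a log2 fold change of -0.40 ± 0.10 and adjusted p = 0.041 in the edgeR test.

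The ratio of Ccl2 to Ccl7 counts was 1.27, 1.31, 0.872 and 0.872 in BMPR2 DELX, against 1.60, 1.59, 1.37 and 1.04 in ROSA. BMPR2 DELX 1 and 2 lay above ROSA 4, so the groups overlapped in this ratio.

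These calls sat close to the threshold. With 1 library left out at a time, the log2 fold change of Ccl2 ran from -0.90 to -0.58 and its adjusted p from 0.028 to 0.11, and it stayed called only without ROSA 4. Ccl7 ran from -0.45 to -0.29 and stayed called without ROSA 1 (adjusted p = 0.048) and without ROSA 3 (adjusted p = 0.043), while the other fits gave adjusted p up to 0.10. Without ROSA 2 the log2 fold changes were -0.58 for Ccl2 (adjusted p = 0.084) and -0.29 for Ccl7 (adjusted p = 0.088). Both genes stayed negative in all of these edgeR fits.

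Ccl2 (GRCm38 chromosome 11, 82035571 to 82037453, plus strand) lies opposite an annotated antisense gene, and the count column used was the stranded one. Ccl7 is at 82045712 to 82047525, Ccl11 at 82057823 to 82062955 and Ccl8 at 82115185 to 82116799. Of the other members of this cluster, Ccl12 had 0 counts in every library and Ccl1 had at most 2 counts in any. Ccl8, whose mouse protein acts on Ccr8, had 0.884, 0.818, 1.56 and 1.77 CPM in BMPR2 DELX, against 1.49, 1.80, 1.73 and 2.36 CPM in ROSA. BMPR2 DELX 1 and 2 were below all ROSA libraries and BMPR2 DELX 3 and 4 were within their range, with a log2 fold change of -0.54 ± 0.28 and adjusted p = 0.25 in the edgeR test. Ccl11 (eotaxin), an eosinophil attractant that acts on Ccr3, had 1.21, 1.01, 1.03 and 0.670 CPM in BMPR2 DELX, against 1.52, 1.82, 0.765 and 1.49 CPM in ROSA, where ROSA 3 was below 3 of the BMPR2 DELX libraries (log2 fold change -0.53 ± 0.29, edgeR adjusted p = 0.28).

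**Figure D3:**
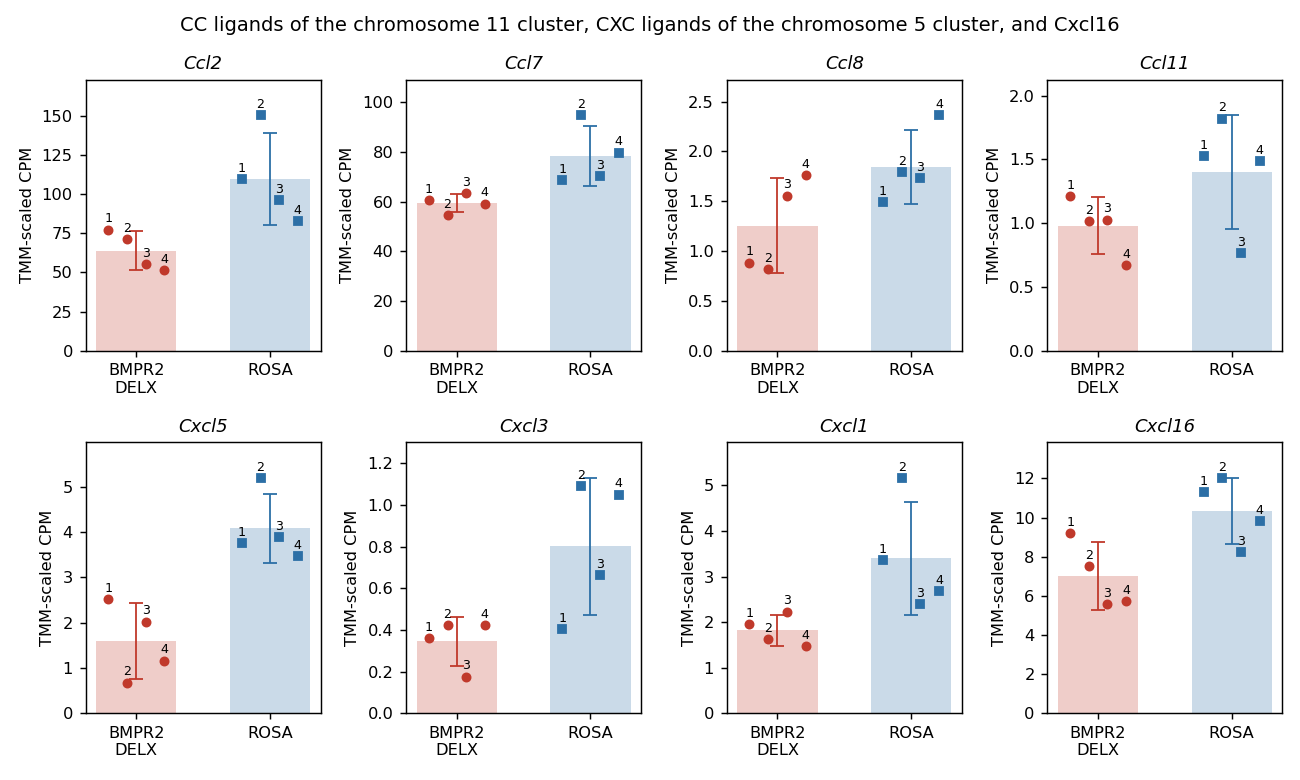
Scaled CPM in each library (numbered points), with the mean (bar) and SD (error bar), for the expressed ligands of the chromosome 11 cluster, the chromosome 5 cluster and Cxcl16, BMPR2 DELX left and ROSA right. The BMPR2 DELX libraries of Ccl2, Ccl7, Cxcl5 and Cxcl1 all lie below the ROSA libraries, while those of Ccl8, Ccl11, Cxcl3 and Cxcl16 overlap them.

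Ccl9 and Ccl6 are mouse ligands of Ccr1 from the next cluster on chromosome 11 (Ccl6 at 83587882 to 83593087). Ccl9 did not pass the test and had 6.91, 5.81, 11.04 and 7.17 CPM in BMPR2 DELX, against 3.95, 6.07, 12.8 and 9.02 CPM in ROSA, with a log2 fold change of -0.04 ± 0.35 and edgeR adjusted p = 0.96. Ccl6 was below the filter and was not tested, with 0.851, 0.367, 1.41 and 0.201 CPM in BMPR2 DELX, against 0.186, 0.218, 0.0665 and 0.204 CPM in ROSA. In BMPR2 DELX 1, 2 and 3 Ccl6 was above every ROSA library, and in BMPR2 DELX 4 it was inside their range. In the fit of all 8 libraries without a count filter its log2 fold change was 2.01 ± 0.58 (edgeR adjusted p = 0.067). Ccl6 was called higher in the fit without BMPR2 DELX 4, the library of its group in which it was lowest. It passed the count filter there only through BMPR2 DELX 1, 2 and 3, with 26, 13 and 48 counts. That call is therefore no support for a difference. Ccl3 and Ccl4, inflammatory ligands of the same cluster, had at most 2 counts and 1 count in any library.

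Leukocyte and macrophage markers had a larger summed level in each BMPR2 DELX library than in any ROSA library. The sum of 16 such markers, of which none was at 0 in all libraries, was 53.6, 41.2, 76.9 and 53.4 CPM in BMPR2 DELX, against 28.2, 33.7, 38.6 and 40.1 CPM in ROSA. Of the 8 markers tested, all 8 log2 fold changes were positive with a median of 0.94, and 1 was called, the lysosomal glycoprotein gene Cd68 (0.72 ± 0.16, edgeR adjusted p = 0.024), beside 3.96% of all tested genes called higher. The other 8 markers were too low to test, among them the pan-leukocyte gene Ptprc, named after its values were seen, with 0.458, 0.113, 0.235 and 0.179 CPM in BMPR2 DELX, against 0.342, 0.291, 0.599 and 0.263 CPM in ROSA. Ptprc was lower in 3 of the BMPR2 DELX libraries than in any ROSA library and higher than 3 ROSA libraries in BMPR2 DELX 1. The part of these cells in the chemokine values was not tested.

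The chromosome 5 cluster holds CXC ligands that attract neutrophils through Cxcr2, and of these Cxcl5 was lower in BMPR2 DELX while Cxcl1 and Cxcl3 did not pass the test. Cxcl5 (chromosome 5, 90759360 to 90761624, plus strand) had 2.52, 0.677, 2.03 and 1.16 CPM in BMPR2 DELX, against 3.76, 5.19, 3.89 and 3.47 CPM in ROSA. The groups did not overlap, and BMPR2 DELX 2 was the lowest library. The log2 fold change was -1.37 ± 0.35, 2.58-fold lower, with adjusted p = 0.040 in the edgeR test. With 1 library left out at a time the change ran from -1.66 to -1.12, and Cxcl5 stayed called only without BMPR2 DELX 1 (adjusted p = 0.029), while the other fits gave adjusted p up to 0.115.

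Cxcl1 had 1.96, 1.64, 2.23 and 1.47 CPM in BMPR2 DELX, against 3.36, 5.17, 2.39 and 2.69 CPM in ROSA. The libraries did not overlap, but BMPR2 DELX 3 and ROSA 3 were close, and the gene missed the threshold with a log2 fold change of -0.91 ± 0.26 and adjusted p = 0.057 in the edgeR test. Without ROSA 3 it was called at -1.04 (adjusted p = 0.045), and without ROSA 2 it was -0.62 (adjusted p = 0.15). Cxcl3 had 0.360, 0.423, 0.176 and 0.425 CPM in BMPR2 DELX, against 0.404, 1.09, 0.665 and 1.05 CPM in ROSA, where ROSA 1 lay within the BMPR2 DELX range (log2 fold change -1.21 ± 0.39, edgeR adjusted p = 0.079). Cxcl2 stayed below the filter at 0.0894 to 0.147 CPM in BMPR2 DELX, against 0.146 to 0.461 CPM in ROSA. Cxcl3 shares 4.29% of its 50-base words with other annotated genes, so a small part of its reads could be lost from the count. Cxcl15 of this cluster had 0 counts.

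**Figure D4:**
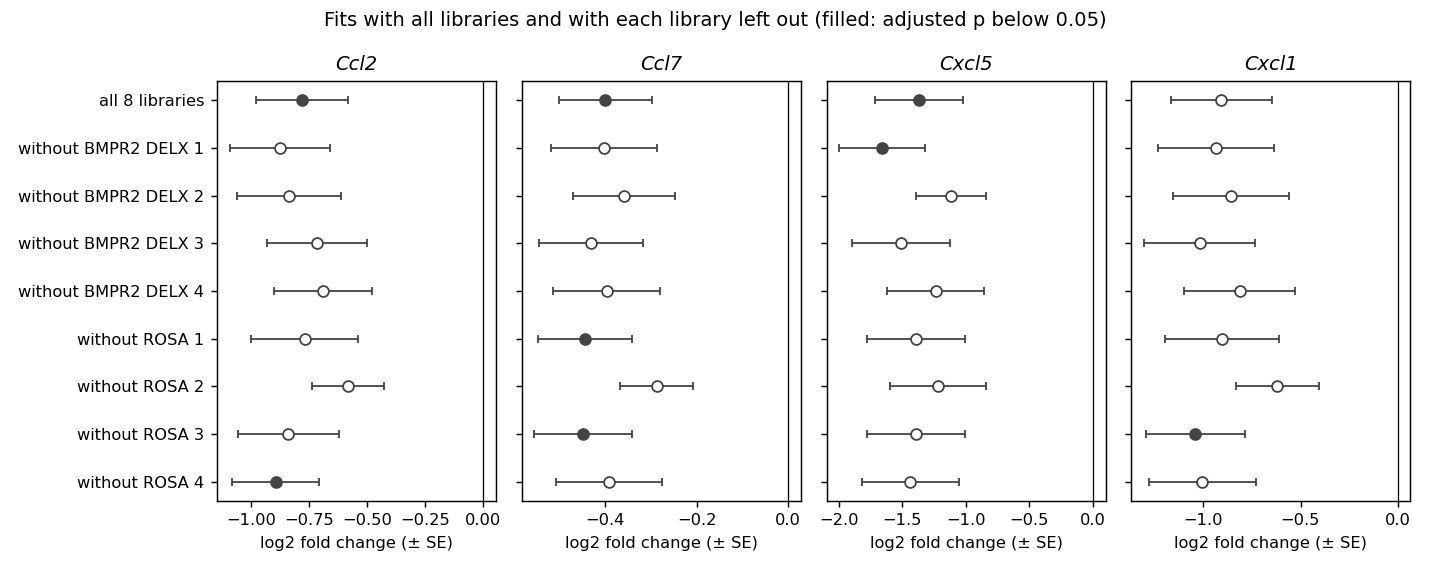
Log2 fold change of BMPR2 DELX over ROSA with its standard error for Ccl2, Ccl7, Cxcl5 and Cxcl1, with all 8 libraries and with each library left out in turn. Every estimate is below 0, and the fits in which a gene was called (filled) number 1 of 8 for Ccl2, 2 of 8 for Ccl7, 1 of 8 for Cxcl5 and 1 of 8 for Cxcl1 among those with a library left out.

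Cxcl16, a membrane-bound ligand that also acts as a scavenger receptor and binds Cxcr6, had 9.23, 7.53, 5.58 and 5.72 CPM in BMPR2 DELX, against 11.3, 12.0, 8.25 and 9.81 CPM in ROSA. BMPR2 DELX 1 was above ROSA 3 and the rest were ordered by group, with a log2 fold change of -0.57 ± 0.18 and adjusted p = 0.081 in the edgeR test. Without BMPR2 DELX 1 it was called at -0.72 (adjusted p = 0.040). Cxcl16 lies opposite Zmynd15 on the other strand, and the stranded column was counted. It shares 16.9% of its 50-base words, searched on both strands, and Zmynd15 is the only gene it shares them with. Its receptor gene Cxcr6 had 0.295, 0.338, 0.528 and 0.536 CPM in BMPR2 DELX, against 0.870, 1.116, 1.33 and 0.379 CPM in ROSA. ROSA 4 lay inside the BMPR2 DELX range, and the log2 fold change was -1.10 ± 0.39 with adjusted p = 0.11. Without ROSA 4 it was called at -1.36 (edgeR adjusted p = 0.030). Cxcr6 is annotated opposite Fyco1, and the stranded column was counted.

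Cxcl12, which signals through Cxcr4 and is removed by Ackr3, varied widely among libraries within each group. It had 63.4, 32.4, 15.1 and 12.9 CPM in BMPR2 DELX, against 50.6, 50.6, 16.9 and 46.1 CPM in ROSA. The groups overlapped, with a log2 fold change of -0.41 ± 0.56 and edgeR adjusted p = 0.68. With 1 library left out at a time the change ran from -1.02 without BMPR2 DELX 1 to -0.16 without BMPR2 DELX 4, and it was -0.016 with ROSA 1 and ROSA 2 set aside. The summed level of 18 endothelial and lymphatic markers was 2617, 2650, 1015 and 1663 CPM in BMPR2 DELX, against 2426, 2746, 1556 and 2158 CPM in ROSA. BMPR2 DELX 3, BMPR2 DELX 4 and ROSA 3 were the 3 lowest libraries in both measures. Of 17 tested markers of this list 1 was called lower (Pdpn) and 0 higher, beside 5.15% of all tested genes called lower and 3.96% called higher. The 1 call is near that share and is not read as a result about the list. None of the markers was at 0 in all libraries, and the part of the endothelial genes in the Cxcl12 level was not tested. Its receptor gene Cxcr4 had 1.47, 1.27, 1.06 and 0.603 CPM in BMPR2 DELX, against 1.55, 1.29, 0.865 and 1.02 CPM in ROSA, a log2 fold change of -0.12 ± 0.30 (edgeR adjusted p = 0.84).

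Cxcl14, a ligand of fibroblast and epithelial cells, had 40.6, 26.0, 86.3 and 50.8 CPM in BMPR2 DELX, against 23.7, 43.8, 38.1 and 39.8 CPM in ROSA. BMPR2 DELX 3 was the highest library and the groups overlapped (log2 fold change 0.49 ± 0.36, edgeR adjusted p = 0.43), and the change was 0.11 without BMPR2 DELX 3. Cx3cl1, the membrane-anchored fractalkine gene, had 8.38, 8.46, 6.28 and 6.70 CPM in BMPR2 DELX, against 6.49, 8.18, 5.49 and 5.40 CPM in ROSA (log2 fold change 0.22 ± 0.16, edgeR adjusted p = 0.43). Its receptor Cx3cr1, found on macrophages, had at most 0.499 CPM in any library.

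**Figure D5:**
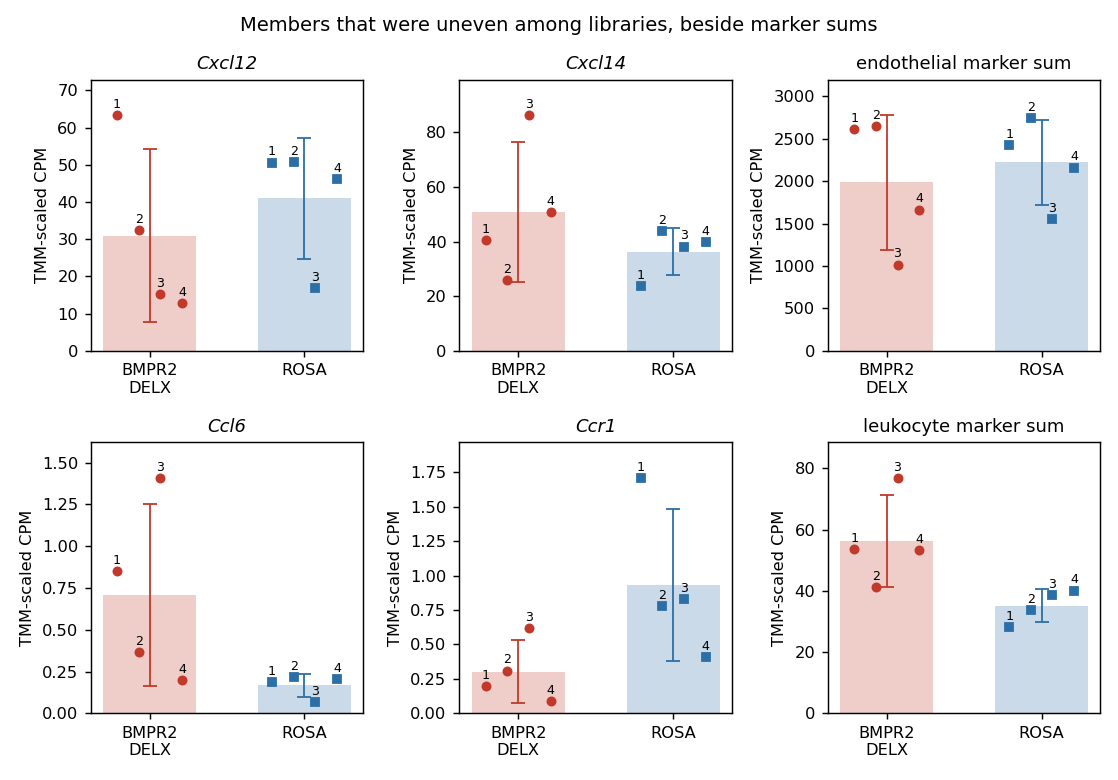
Scaled CPM in each library (numbered points), with the mean (bar) and SD (error bar), for Cxcl12, Cxcl14, Ccl6 and Ccr1 beside the summed endothelial and leukocyte markers, BMPR2 DELX left and ROSA right. Cxcl12 and the endothelial sum are both low in BMPR2 DELX 3 and in ROSA 3, at 15.1 and 16.9 CPM of Cxcl12, and Ccl6 and the leukocyte sum are both highest in BMPR2 DELX 3. In BMPR2 DELX 4 they part, with Ccl6 at 0.201 CPM, inside the ROSA range, and the leukocyte sum at 53.4 CPM, above every ROSA library. Ccr1 is highest in ROSA 1, where the leukocyte sum is lowest.

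Cxcl17, a ligand of mucosal epithelium, had the largest positive log2 fold change among tested members, 1.37 ± 0.71, and did not pass the test (edgeR adjusted p = 0.26). It had 2.09, 1.01, 0.264 and 0.469 CPM in BMPR2 DELX, against 0.497, 0.485, 0.0333 and 0.409 CPM in ROSA. BMPR2 DELX 1 and 2 were above the other 6 libraries, and without BMPR2 DELX 1 the log2 fold change was 0.68. The 9 epithelial markers summed to 26.8, 34.4, 50.1 and 10.9 CPM in BMPR2 DELX, against 10.7, 18.7, 5.25 and 12.6 CPM in ROSA. Of 7 tested epithelial markers 1 was called higher (Pax8) and 0 lower, beside 3.96% of all tested genes called higher and 5.15% called lower. None of the epithelial markers was at 0 in all libraries. Pax8 had 0.290 to 4.49 CPM in BMPR2 DELX, against 0.0584 to 0.315 CPM in ROSA. It passed the count filter mainly through BMPR2 DELX, where it was high, so its call is no support for a difference. BMPR2 DELX 3 had the highest epithelial sum and the lowest Cxcl17 of its group, and the part of epithelial cells in the Cxcl17 values was not tested.

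The other tested CC ligands did not pass the test. Ccl25, the thymic and intestinal ligand of Ccr9, had 4.45, 3.72, 3.96 and 3.24 CPM in BMPR2 DELX, against 3.48, 3.79, 5.29 and 3.79 CPM in ROSA, a log2 fold change of -0.09 ± 0.17 (edgeR adjusted p = 0.78). Ccl27a, a skin-associated ligand of Ccr10, averaged 1.47 ± 0.26 CPM in BMPR2 DELX, against 1.63 ± 0.24 CPM in ROSA, and its value is uncertain because 45.0% of its 50-base words are shared with other annotated genes. The remaining tested CC ligands, Ccl17, Ccl5 and Ccl28, had log2 fold changes of -0.46, 0.33 and 0.10, at 0.205 to 0.865 CPM over the 8 libraries.

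Receptor genes were low throughout. Of the 18 receptor genes 4 were tested and 0 were called by edgeR, DESeq2 or limma voom, while 2 of them, Ccr1 and Cxcr6, had an unadjusted edgeR p below 0.05. Ccr2 (the receptor of Ccl2 and Ccl7) had at most 2 counts and Cxcr2 (the receptor of Cxcl1, Cxcl3 and Cxcl5) had at most 3 counts in any library. Ccr3 and Ccr9 also had at most 3 counts, and Ccr7, Cxcr1 and Cxcr3 at most 2. Ccr1 was the receptor with the largest difference, at 0.196, 0.310, 0.616 and 0.0894 CPM in BMPR2 DELX, against 1.71, 0.777, 0.831 and 0.409 CPM in ROSA. BMPR2 DELX 3 was above ROSA 4 and the rest were ordered by group (log2 fold change -1.63 ± 0.57, edgeR adjusted p = 0.11), and without ROSA 1, the highest library, the change was -1.15. Ccr1 passed the count filter through ROSA, where it was higher, so its p and change are no support for a difference. The 16 lymphocyte and neutrophil markers, of which 10 had at most 3 counts in every library, summed to 0.753 to 1.16 CPM in BMPR2 DELX, against 0.801 to 1.20 CPM in ROSA.

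The atypical receptor Ackr3, which removes Cxcl12, had 20.6, 23.8, 29.6 and 34.9 CPM in BMPR2 DELX, against 25.4, 30.7, 25.3 and 21.1 CPM in ROSA. The groups overlapped with a log2 fold change of 0.09 ± 0.17 (edgeR adjusted p = 0.78). Ackr4, which removes the lymphoid ligands Ccl19, Ccl21 and Ccl25, had 2.09, 2.20, 1.91 and 1.92 CPM in BMPR2 DELX, against 5.97, 3.96, 1.66 and 2.60 CPM in ROSA. The BMPR2 DELX libraries were close together, the ROSA libraries spread on either side of them, and the change of -0.81 ± 0.34 did not pass the test (edgeR adjusted p = 0.16). Leaving out ROSA 1 gave -0.43, and leaving out ROSA 3 gave -1.04 with adjusted p = 0.048. Ackr1 and Ackr2 had at most 4 and 5 counts in any library.

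Of the 34 members on chromosomes that were not tested, 10 had 0 counts in all libraries and 24 had counts, of which 15 had at most 3 counts in every library and 9 had more in some library. Those at 0 included the lymphoid ligands Ccl19, Ccl21a and Ccl21b, for which a shared sequence with near copies can lose reads. Besides Ccl6 and Cxcl2, the highest of the untested members were Cxcl10, an interferon-induced ligand of Cxcr3, at 0.0894 to 0.327 CPM in BMPR2 DELX, against 0.146 to 0.315 CPM in ROSA, and Ccl20, the ligand of Ccr6, at 0.0655 to 0.235 CPM in BMPR2 DELX, against 0.146 to 0.291 CPM in ROSA. Both were below the filter, and no difference is read from them.

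Genes that act around chemokines were counted in lists. Of 22 NF-κB pathway and feedback genes, all tested, 5 were lower, 1 was higher and 16 did not pass, beside 5.15% of all tested genes called lower and 3.96% called higher, with a median log2 fold change of -0.14 against 0.0045 over all tested genes. Rel, which encodes a subunit, averaged 9.51 ± 0.76 CPM in BMPR2 DELX, against 16.2 ± 2.83 CPM in ROSA (SD, n = 4 each; log2 fold change -0.77 ± 0.13, edgeR adjusted p = 0.010). The feedback inhibitor Tnfaip3 (A20) averaged 53.4 ± 9.68 CPM in BMPR2 DELX, against 88.9 ± 12.8 CPM in ROSA (-0.73 ± 0.14, edgeR adjusted p = 0.015). Nfkb2 and Cyld, a subunit precursor and a deubiquitinase that limits the pathway, were lower by log2 changes of -0.36 and -0.31 (edgeR adjusted p = 0.020 and 0.031). The gene called higher was Bcl3, an atypical member of the inhibitor family, named after its values were seen, with 16.9 ± 1.63 CPM in BMPR2 DELX, against 9.47 ± 3.19 CPM in ROSA (0.83 ± 0.22, edgeR adjusted p = 0.049).

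Among 26 tested inducing cytokines and receptors, 6 were higher, 0 were lower and 20 did not pass (median 0.07), beside 3.96% of all tested genes called higher and 5.15% called lower. The TNF receptor gene Tnfrsf1b averaged 57.6 ± 4.75 CPM in BMPR2 DELX, against 35.9 ± 1.53 CPM in ROSA (log2 fold change 0.68 ± 0.07, edgeR adjusted p = 0.0018). Il4ra, the IL-4 receptor chain, averaged 439 ± 52.6 CPM in BMPR2 DELX, against 232 ± 30.7 CPM in ROSA (0.92 ± 0.11, edgeR adjusted p = 0.0030). The interferon regulator Irf7 and the second TNF receptor gene Tnfrsf1a rose by log2 changes of 0.88 and 0.34 (edgeR adjusted p = 0.017 and 0.022).

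Of 30 tested genes of chemokine receptor signalling, 3 were lower, 0 higher and 27 did not pass (median -0.07), beside 5.15% of all tested genes called lower and 3.96% called higher. Rgs16, a G protein regulator that shortens receptor signals, averaged 92.3 ± 15.6 CPM in BMPR2 DELX, against 253 ± 67.0 CPM in ROSA (-1.45 ± 0.20, edgeR adjusted p = 0.0050). The G protein subunit genes Gng12 and Gnai1 were lower by log2 changes of -0.41 and -0.40 (edgeR adjusted p = 0.022 and 0.044).

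Of 22 tested genes that process or present chemokines, 4 were higher, 2 were lower and 16 did not pass (median 0.09), beside 3.96% of all tested genes called higher and 5.15% called lower. Among the 4 called higher was Dpp4, named after its values were seen, with 0.335 to 0.556 CPM in BMPR2 DELX, against 0 to 0.204 CPM in ROSA. Dpp4 passed the count filter only through BMPR2 DELX, where it was high, so its call is no support for a difference. Sdc1, a heparan sulfate proteoglycan, averaged 293 ± 35.8 CPM in BMPR2 DELX, against 135 ± 16.3 CPM in ROSA (1.12 ± 0.11, edgeR adjusted p = 0.0013). The protease genes differed in direction, with Mmp13 lower at -1.43 ± 0.23 (1.83 ± 0.43 CPM in BMPR2 DELX, against 4.92 ± 1.23 CPM in ROSA, edgeR adjusted p = 0.0083), and Mmp2 higher at 0.88 ± 0.19 (299 ± 49.5 CPM in BMPR2 DELX, against 162 ± 43.4 CPM in ROSA, edgeR adjusted p = 0.027). Adam17, the sheddase of Cx3cl1 and other membrane proteins, was higher by 0.24 (edgeR adjusted p = 0.026). Of 7 tested chemokine relatives outside the symbol rule, 0 were called (median 0.0028).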

How the data were processed

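The genome build GRCm38 and the tools STAR 2.5.2b and HTSeq are listed in the submitters' processing notes, without saying which step each served, and the annotation release and read layout are not given in the sources used here. The authors deposited raw read counts per Ensembl gene, in an unstranded and 2 stranded columns. The opposite-strand column was used, which held 92.1% to 94.0% of strand-assigned counts. The 4 lines naming no gene (14.7% to 22.0% of reads) were left out. GENCODE M21 supplied symbols, biotypes and exon lengths, and 49412 of 49671 gene IDs were found. RefSeq promoters (GRCm38.p6) were matched by symbol.

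Members and gene lists were chosen with earlier results of these data known. Genes passing filterByExpr were compared by the edgeR 4.0.16 quasi-likelihood test (TMM, robust dispersion, R 4.3.3) with Benjamini-Hochberg adjustment over all 14887 genes. Standard errors were derived from each gene's F statistic (log2 fold change over root F). Levels are TMM-scaled CPM, with RPKM per exon length. Named members were all called ones, all with a mean CPM of at least 1, and those with the smallest p up to 20 in all. From other lists, up to 4 called genes by smallest p were named. Some other members were named without tests, the rest were counted, and some genes are not reported here. The labels state no pairing and no separate animals, so p-values measure only the spread between samples. Replicates differed well beyond counting noise (chi-square per degree of freedom at least 31.3). The model was first tested on simulated data.

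Alternatives were DESeq2 1.42.0, limma voom 3.58.1, upper-quartile factors, no count filter, the unstranded column, no robust dispersion, the replicate number as a block, each library left out, and ROSA 1 and 2 set aside. Figures were drawn with matplotlib 3.10.9.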

Additional observations from a re-analysis of the deposited data

Results flagged for a closer look

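Cxcl12 in ROSA 3 stood apart from the rest of its group, with 16.9 CPM against 46.1 to 50.6 CPM in the other ROSA libraries. It was the 1 sample that did so in the 48 groups of 4 libraries looked at (24 tested members in BMPR2 DELX and ROSA each) by Dixon's criterion, and chance alone flags about 1 in 20 such groups.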

How the results depend on the processing

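The count of chemokine genes called lower was 3, and it was 5 with DESeq2 (Ccl2, Ccl7, Cxcl5, Cxcl1 and Cxcl16), 0 with ROSA 1 and ROSA 2 set aside, and 0 to 3 with 1 library left out at a time. Fewer samples entered the last 2 kinds of fit. The fit with 3, without ROSA 3, called Ackr4, Ccl7 and Cxcl1. No fit with a library left out called Ccl2, Ccl7 and Cxcl5 together. The count called higher was 0, and 0 to 1 with a library left out, the 1 being Ccl6. It passed the count filter in that fit only through the BMPR2 DELX libraries, where it was high. Over all genes, 589 were higher and 766 lower, against 1070 and 1228 with DESeq2, 64 and 108 with ROSA 1 and ROSA 2 set aside, and 213 to 545 higher and 264 to 721 lower with a library left out. Upper-quartile factors gave 734 higher and 606 lower, so the higher share of calls moved to 54.8%, against 43.5%. The cause was not tested.

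With the replicate number as a block, 2 chemokine genes were called lower, Ccl2 and Cxcl16 (edgeR adjusted p = 0.0062 and 0.029). Ccl7 and Cxcl5 were not called with the block (edgeR adjusted p = 0.076 and 0.056). Over all genes, 563 were higher and 682 lower. The deviations of same-numbered libraries had correlations of 0.0050, 0.21, 0.24 and 0.093, and those of libraries with different numbers ran from -0.24 to 0.18. Of the libraries, 2 of 4 BMPR2 DELX and 3 of 4 ROSA correlated best with their own number. These values do not settle whether the numbers mark pairs. The numbers were not taken as pairs because the labels state no pairing.

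Ccl2 stayed called in 7 of 16 alternatives, Ccl7 in 7 and Cxcl5 in 6. Without the count filter Ccl2 had an adjusted p of 0.16 and Cxcl5 of 0.051. A change of sign occurred in members near 0: Ackr3 was -0.055 without BMPR2 DELX 4; Ccl9 was 0.063 with limma voom, 0.027 with the block, and between -0.26 and 0.28 with a library left out (0.017, 0.075, 0.28 and 0.026 in the fits that turned); Ccl25 was 0.056 without ROSA 3 and down to -0.16 in the other fits with a library left out; Cxcr4 was 0.095 without BMPR2 DELX 4, 0.050 without ROSA 1, down to -0.28 in the other fits with a library left out, and 0.22 with ROSA 1 and ROSA 2 set aside. Members under 1 CPM rest on few counts, and depth limits their folds.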
